A study of Homo sapiens with 12 samples.

Results

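The comparison is of AC16 cells after 2 days in 0.1 µM doxorubicin with AC16 cells kept in medium alone, over all genes with enough reads to test. It rests on 6 of the 12 libraries of the series, 3 in each group, and on 17320 of the 60607 genes in the count table. AC16 is a single established human line, made by fusing ventricular heart cells with transformed fibroblasts, and the cells are labelled wild type and cardiomyocytes. Both groups were grown in DMEM/F12 with serum and antibiotics. Doxorubicin, the drug given to the treated cells, was the only labelled difference between them. The other 6 libraries had 4 or 6 days of the same dose and lent their spread to the fit. The 4-day libraries also served to ask whether a change seen after 2 days was still there. The titles give the 2-day exposure as 48 hours and every library, control included, as day 6, and no label says whether the exposure ended at harvest. Whether the 3 libraries of each group stem from separate cultures is not labelled, and the p-values therefore speak only for the spread among these libraries, possibly a technical spread.

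Doxorubicin is an anthracycline that slips between the bases of DNA and holds topoisomerase II on cut DNA. The breaks set off the p53 response, stop the cell cycle and, in many cell types, start inflammatory and interferon signalling. In the heart the drug is known for damage to muscle cells that depends on the total dose. The description looks past lists of those 3 responses to classes such as membrane coats, chromatin complexes, cilia, keratins and long non-coding RNAs. For the choice of single genes, 86 symbols already described for these data were left out. Overlap of the named genes with the 3 responses was not counted, and several belong to them. A gene given without mention of a response is not thereby outside it.

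Levels are read counts scaled to a common library size (CPM), given as mean ± SD of 3 libraries. Differences are log2 fold changes ± SE, and a gene was called when its Benjamini-Hochberg adjusted p over all 17320 genes was under 0.05 in edgeR's quasi-likelihood test. By that rule 8180 genes (47.2%) were called, 4122 higher (23.8%) and 4058 lower (23.4%). At least 2-fold higher were 1432 genes (8.27%), and at least 2-fold lower were 923 (5.33%). The control and treated libraries did not overlap for 52.2% of genes. The median log2 fold change of all tested genes was -0.01. Scaling by library totals alone moved that median to -0.14 and gave 3203 higher calls against 5386 lower ones. Small differences are relative to the scaling.

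Total counts lay between 14835743 and 21226441 per library. The mitochondrial share was 6.01% to 8.26% in the controls and 5.51% to 7.74% in the treated libraries, so the groups overlapped. Of 15 heart muscle markers only TTN, the gene for the giant sarcomere protein titin, and PLN, a regulator of the calcium pump, could be tested. MYH6, MYL2 and CSRP3 had 0 counts in all 6 libraries, and MYH7, MYL7, MYBPC3 and NKX2-5 had at most 3 counts in each. The summed level of the 15 was 9.06 to 15.3 CPM in controls and 11.1 to 14.8 CPM after doxorubicin, so the labelled cell type was not borne out by its defining genes. Of the fibroblast markers 16 could be tested, 11 of them higher and 1 lower, and their sum went from between 15981 and 16977 CPM to between 25341 and 27032 CPM. Most of that sum was FN1 alone, with a mean of 9620 CPM in controls and 15904 CPM after treatment. Of 7 tested epithelial markers 4 were higher and 1 lower, with a sum of 97.9 to 130.0 CPM against 262 to 286 CPM. Endothelial markers summed to 26.1 to 28.8 CPM in controls and 27.9 to 33.8 CPM after treatment, with 1 of 8 tested genes higher. Leukocyte markers summed to 8.12 to 11.6 CPM in controls and, without overlap, to 15.9 to 17.1 CPM after treatment, with 1 of 6 tested genes higher and CD3E and TYROBP at 0 counts. In bulk RNA fewer cells of a type and less RNA per cell cannot be told apart.

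The largest rises among the named genes began from levels near 0 and covered enzymes, receptors and adhesion proteins of many kinds. HMCN2, which encodes the large matrix protein hemicentin 2 (GRCh38 chromosome 9, 130265882 to 130434123), had 0.227, 0.263 and 0 CPM in the controls and 9.42, 11.9 and 8.59 CPM after 2 days, a log2 fold change of 5.84 ± 0.36 (adjusted p = 1.59e-12). PDE4C, a phosphodiesterase that breaks down cyclic AMP, had 0.114, 0.263 and 0.132 CPM against 7.31, 8.63 and 8.53 CPM (5.55 ± 0.30). CPA4, a secreted carboxypeptidase gene on chromosome 7, was the most abundant of these after IFIT3, with 5.68, 6.17 and 9.91 CPM in the controls and 242, 204 and 252 CPM after treatment (5.01 ± 0.24, adjusted p = 3.33e-09). In all 3 genes every treated library lay far above every control, which the choice of the named rises required.

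Several of the genes are better known from other tissues. CEACAM1, an adhesion protein of the immunoglobulin family, stood at 1.08, 0.591 and 0.793 CPM in controls and at 31.8, 32.0 and 31.8 CPM after doxorubicin (log2 fold change 5.25 ± 0.22). UCN2 encodes urocortin 2, a peptide hormone that acts on the heart through a corticotropin-releasing hormone receptor, and went from 0.736 ± 0.283 to 16.6 ± 2.77 CPM (4.50 ± 0.25). GABBR2, a subunit of the GABA-B receptor of nerve cells, reached 6.45, 7.05 and 5.53 CPM from 0.284, 0.328 and 0 CPM. IRAG2, known as a membrane protein of lymphocytes, went from 0.384 ± 0.247 to 13.1 ± 1.41 CPM, and KRT7, a keratin of simple epithelia, from 0.565 ± 0.0796 to 12.3 ± 1.47 CPM. CLCA2, which regulates chloride conductance in epithelial cells, rose from 3.29 ± 0.254 to 64.9 ± 2.28 CPM with little spread in either group (4.30 ± 0.12, adjusted p = 3.19e-19). CES3, a carboxylesterase gene, rose from 0.415 ± 0.0732 to 8.65 ± 1.95 CPM.

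Among these 15 rises were a pair of genes with known roles in muscle. TRIM55 encodes a ubiquitin ligase of the sarcomere, and it had 0.227, 0.328 and 0.0661 CPM in the controls and 10.7, 6.16 and 9.37 CPM after treatment (log2 fold change 5.36 ± 0.33). RRAD encodes a small GTPase that holds back voltage-gated calcium channels in the heart, and it went from 0.227, 0.525 and 0.198 CPM to 9.83, 10.7 and 8.41 CPM (4.91 ± 0.26). Titin, in the same libraries, was not called (0.12, 11.3 CPM in controls and 12.4 CPM after treatment). ANXA8L1 rose to 31.2 ± 4.05 from 1.06 ± 0.469 CPM, but it is nearly identical to ANXA8, so the counting may have split their reads. The remaining pair, IFIT3 (18.7 ± 2.43 to 411 ± 54.7 CPM) and ISG15 (3.90 ± 0.982 to 88.7 ± 13.6 CPM), belong to the interferon response.

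**Figure D1:**
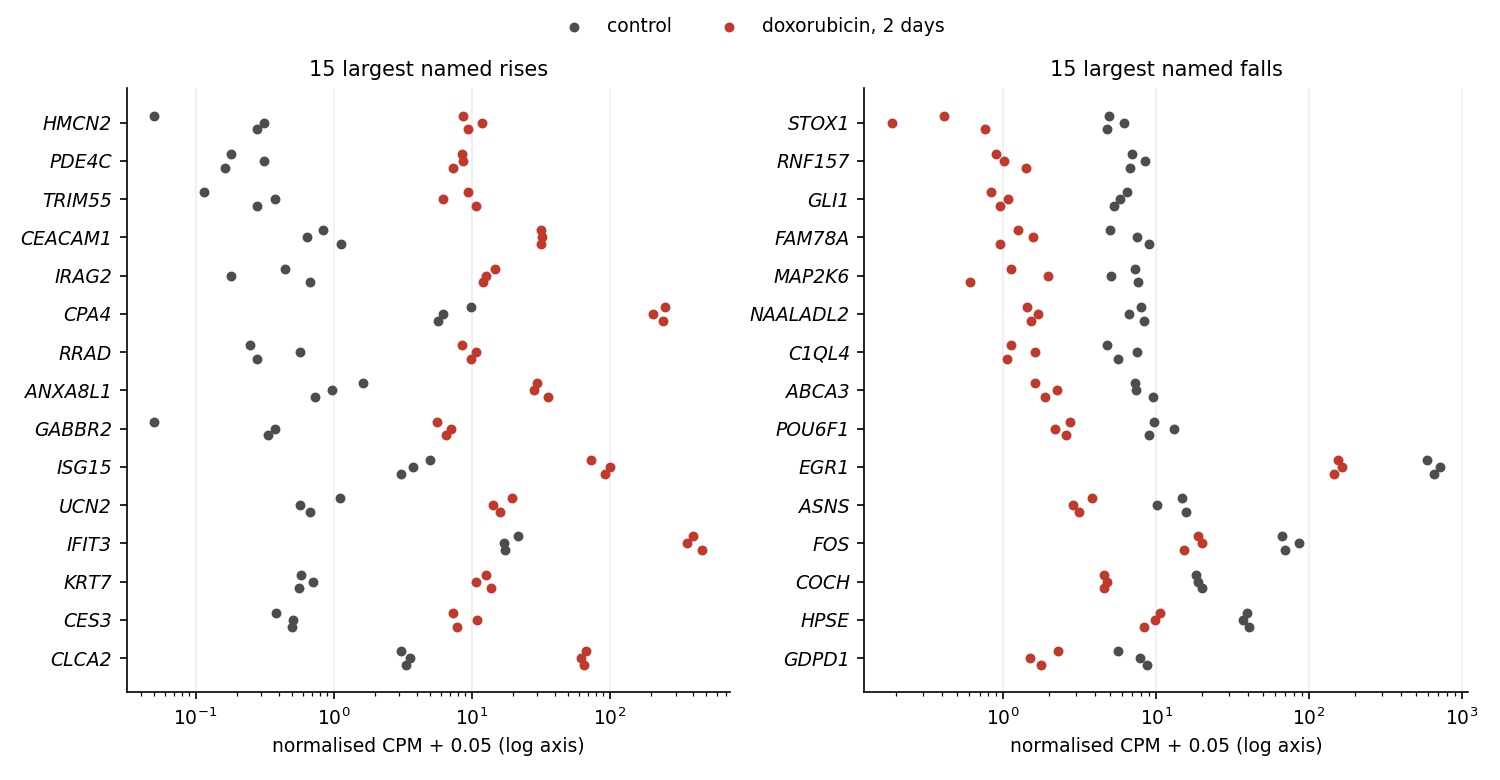
Level of each of the 30 named rises and falls in the 6 libraries, as normalised CPM + 0.05 on a log axis, with 1 point per library (grey, control; red, 2 days of doxorubicin). In every row the grey and red points are apart, which the choice of these genes required; IFIT3, CPA4, ISG15 and CLCA2 are the abundant rises and EGR1 and FOS the abundant falls.

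The named falls were smaller, and most began from low levels. STOX1, which encodes a winged-helix DNA-binding protein, went from 4.71, 6.11 and 4.89 CPM to 0.706, 0.137 and 0.360 CPM, a fall by 3.60 ± 0.33 on the log2 scale that was -4.30 without day 2 replicate 1. RNF157, a ubiquitin ligase gene, fell from 7.32 ± 0.940 to 1.05 ± 0.273 CPM. GLI1, both an effector and a target of Hedgehog signalling, had 5.22, 5.78 and 6.41 CPM in the controls and 0.907, 1.03 and 0.781 CPM after treatment (log2 fold change -2.67 ± 0.24). MAP2K6, a kinase that activates p38, fell from 6.64 ± 1.38 to 1.18 ± 0.687 CPM, and ABCA3, a lipid transporter, from 8.01 ± 1.27 to 1.86 ± 0.317 CPM. HPSE, which encodes heparanase, an enzyme that cuts heparan sulfate in the matrix, fell from 38.9 ± 2.05 to 9.56 ± 1.18 CPM.

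EGR1 and FOS, immediate-early transcription factors that growth signals switch on within minutes, were the abundant genes among the falls. EGR1 had 660.2, 725 and 594 CPM in the controls and 146, 164 and 155 CPM after doxorubicin, a log2 fold change of -2.09 ± 0.13 (adjusted p = 2.36e-10). FOS had 69.9, 86.3 and 66.5 CPM against 15.3, 19.9 and 18.7 CPM (-2.05 ± 0.11, adjusted p = 1.61e-13). ASNS, the asparagine synthetase gene, fell with them, from 15.7, 10.1 and 14.7 CPM to 3.07, 2.81 and 3.78 CPM (-2.07 ± 0.20). The other falls were FAM78A, NAALADL2, C1QL4, POU6F1, COCH and GDPD1, with log2 fold changes from -2.59 to -2.03.

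Promoters of the risers held the AP-1 sequence more often than promoters at large. Searched were the 250 bases before the RefSeq start (GRCh38.p14) of 10750 tested protein-coding genes that matched by symbol, on both strands. TGACTCA or TGAGTCA, the palindromic core that FOS and JUN family dimers bind, was in 2.65% of all these windows, in 6.59% of 789 genes at least 2-fold higher and in 1.68% of 476 genes at least 2-fold lower. The interferon-type motif, GAAA and GAAA with any 2 bases between them, was in 2.42%, 4.18% and 2.10%, and the cyclic AMP motif TGACGTCA in 2.87%, 2.79% and 2.52%. The ATF4-type motif TGATGNAA was in 1.43%, 2.53% and 2.52%, the CArG box in 1.01%, 2.03% and 0.63%, and CCAAT in 35.0%, 31.2% and 38.9%. The CArG box shares rest on few promoters, 16 of the 789 risers and 3 of the 476 fallers, and EGR1, a falling gene, holds it. The median GC content also differed, at 64.8%, 62.8% and 65.6% of bases, and its part in these shares was not tested. The windows of HMCN2, CPA4 and UCN2 are shown because these named rises hold an AP-1 match, in capitals, and that of EGR1 because it holds matches to the CArG box, the sequence that serum response factor binds, also in capitals. A match is a run of letters and not a measured binding site.
HMCN2, chr9:130265510-130265759, plus strand: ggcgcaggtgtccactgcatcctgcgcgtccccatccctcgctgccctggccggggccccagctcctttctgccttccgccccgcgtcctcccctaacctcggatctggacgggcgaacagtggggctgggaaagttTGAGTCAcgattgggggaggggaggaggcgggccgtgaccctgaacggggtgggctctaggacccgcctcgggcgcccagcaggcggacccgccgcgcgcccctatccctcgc
CPA4, chr7:130292911-130293160, plus strand: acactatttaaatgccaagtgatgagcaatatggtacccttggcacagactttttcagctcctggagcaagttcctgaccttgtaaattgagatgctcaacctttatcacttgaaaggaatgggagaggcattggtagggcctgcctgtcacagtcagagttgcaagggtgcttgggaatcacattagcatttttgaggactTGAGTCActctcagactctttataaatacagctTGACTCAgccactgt
UCN2, chr3:48563782-48564031, minus strand: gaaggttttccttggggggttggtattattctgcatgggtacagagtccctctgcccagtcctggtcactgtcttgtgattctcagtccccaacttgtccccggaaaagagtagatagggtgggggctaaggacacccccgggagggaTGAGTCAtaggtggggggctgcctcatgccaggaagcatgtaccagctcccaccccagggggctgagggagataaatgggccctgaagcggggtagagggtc
EGR1, chr5:138465229-138465478, plus strand: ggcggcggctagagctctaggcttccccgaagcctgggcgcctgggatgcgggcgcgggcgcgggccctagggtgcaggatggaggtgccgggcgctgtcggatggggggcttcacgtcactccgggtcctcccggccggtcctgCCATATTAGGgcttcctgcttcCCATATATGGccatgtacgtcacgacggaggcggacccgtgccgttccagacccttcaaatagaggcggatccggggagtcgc

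A set of 34 genes had no read in any control library and at least 5 reads in every treated library, 16 of them protein-coding. Their rises are lower bounds, computed as if the controls had 3 counts between them. CLEC17A, a lectin gene of B cells, had 0 counts in all controls and 103, 66 and 72 counts after treatment, at least 75.4-fold higher. CSF2, the gene for the cytokine GM-CSF, had 53, 48 and 75 counts and was at least 55.1-fold higher. ASPA, an aspartoacylase gene, had 43, 47 and 45 counts (at least 42.3-fold higher), and ABCA13, a lipid transporter gene, had 32, 31 and 40 counts (at least 32.2-fold higher). LINC02052, a long intergenic RNA, had 84, 62 and 49 counts and was at least 61.0-fold higher. In the other direction ENTPD8, an ectonucleotidase gene too low to be tested, was the only gene, with 5, 11 and 6 counts in the controls and 0 after treatment, at least 7.81-fold lower.

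CSF2 and CLEC17A then parted. CSF2 was at 3.49 ± 0.933 CPM after 2 days and at 40.0 ± 13 CPM after 4 days (log2 difference 3.53 ± 0.25, adjusted p = 1.8e-07). CLEC17A was at 4.68 ± 0.455 CPM after 2 days and 0.115 ± 0.0619 CPM after 4 days (-5.27 ± 0.42, adjusted p = 1.36e-09). Both had 0 counts in the controls and like levels after 2 days, and by 4 days they lay far apart.

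Of 276 tested RNAs with a LINC name, 97 (35.1%) were called higher and 34 (12.3%) lower, with a median log2 fold change of 0.30. The share was lower among all 835 tested genes annotated as lincRNA, of which 21.1% were higher, against 23.8% of all genes. Most of the 2267 annotated RNAs with a LINC name were too scarce to be tested. The count filter favours scarce RNAs that rose, and its part in these shares was not tested. H19, an imprinted RNA of fetal tissue on chromosome 11, had 0.0568, 0.197 and 0 CPM in the controls and 7.86, 13.8 and 7.15 CPM after treatment (6.72 ± 0.54, and 7.98 without control replicate 2). LINC01629 went from 0.0220 ± 0.0381 to 6.33 ± 0.516 CPM (7.82 ± 0.45, and 9.80 without control replicate 3). PINCR, an RNA known to be induced by p53, rose from 0.110 ± 0.101 to 8.45 ± 1.55 CPM (6.25 ± 0.35, 5.63 without control replicate 1 and 6.96 without control replicate 3). LINC01173 rose from 0.117 ± 0.149 to 5.47 ± 1.06 CPM (5.38 ± 0.41, and 7.09 without control replicate 1). Antisense RNAs as a class were balanced, with 99 of 614 higher and 86 lower.

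MIR17HG fell the furthest of the named non-coding RNAs. It is the host transcript of the miR-17-92 cluster, a set of microRNAs known to favour growth, and lies on chromosome 13 (91347820 to 91354579). Its level was 2.44, 2.89 and 2.05 CPM in the controls and 0.504, 0.274 and 0.240 CPM after doxorubicin, a log2 fold change of -2.79 ± 0.39 (adjusted p = 1.79e-06). MIR34AHG, the host of the p53-induced miR-34a, moved the other way, from 4.43, 2.63 and 2.91 CPM to 14.6, 14.5 and 11.1 CPM (1.99 ± 0.17, adjusted p = 7.89e-10). Of 34 tested microRNA hosts, 6 were higher (17.6%) and 11 lower (32.4%), against 23.8% and 23.4% of all genes. Mature microRNAs were not measured here. The main mature sequences of both hosts are shown, from RefSeq (GRCh38.p14), because their seeds set which targets they could reach; the seed, bases 2 to 8, is in capitals. miR-17-5p and miR-20a-5p share a seed, as do miR-19a-3p and miR-19b-3p.
hsa-miR-17-5p, chr13:91350618-91350640, plus strand: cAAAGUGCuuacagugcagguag
hsa-miR-20a-5p, chr13:91351072-91351094, plus strand: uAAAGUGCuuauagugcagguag
hsa-miR-18a-5p, chr13:91350756-91350778, plus strand: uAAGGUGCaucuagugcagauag
hsa-miR-19a-3p, chr13:91350939-91350961, plus strand: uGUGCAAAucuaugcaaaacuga
hsa-miR-19b-3p, chr13:91351245-91351267, plus strand: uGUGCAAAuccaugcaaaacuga
hsa-miR-92a-3p, chr13:91351361-91351382, plus strand: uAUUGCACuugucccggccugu
hsa-miR-34a-5p, chr1:9151735-9151756, minus strand: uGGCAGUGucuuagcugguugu

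The other named non-coding falls were 3 antisense transcripts and LINC01389. TMPO-AS1, which lies next to the lamina gene TMPO, went from 10.4, 12.2 and 11.3 CPM to 3.63, 2.33 and 2.76 CPM (log2 fold change -1.93 ± 0.16). SLC7A11-AS1, antisense to the cystine transporter gene, went from 4.43, 1.64 and 4.36 CPM to 0.504, 0.890 and 0.961 CPM (-2.17 ± 0.38). IQCH-AS1 fell from 10.5 ± 0.805 to 2.88 ± 0.262 CPM. How the counting treated strand is not given in the sources used here, and reads of an antisense RNA and of its partner may not have been told apart.

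Among the largest gains were abundant genes of the matrix and the actin skeleton, which took up a larger part of the reads. The 7 gains in CPM described here went together from 2.25 ± 0.0559% to 3.70 ± 0.162% of all counts (n = 3). Their choice as gains fixed the direction, and only the size is informative. FN1, which encodes fibronectin, had 10116, 8794 and 9949 CPM in the controls and 15182, 15686 and 16844 CPM after treatment (log2 fold change 0.73 ± 0.08, adjusted p = 7.37e-08). THBS1, the gene for the matrix protein thrombospondin 1, had the steepest rise among them, from 605, 525 and 684 CPM to 3874, 3013 and 4437 CPM (2.64 ± 0.15). The fibroblast marker list moved the same way, but it holds FN1, which made up most of its sum. The part of fibroblast-type cells in these gains was not tested.

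Genes of contractile and cross-linked actin made up most of the rest. MYH9, non-muscle myosin heavy chain, rose from 2819 ± 72.6 to 5380.5 ± 317 CPM, FLNA, which cross-links actin filaments, from 2397 ± 16.5 to 4040.5 ± 310.3 CPM, and CALD1, the actin- and myosin-binding caldesmon, from 929 ± 59.6 to 2117 ± 62.4 CPM. ANXA2, a membrane- and actin-binding annexin, rose from 939 ± 116 to 2432 ± 135 CPM. ACTB, beta-actin itself, rose from 4727 ± 568 to 5893 ± 192 CPM (log2 fold change 0.32 ± 0.09, adjusted p = 0.00397), a call lost with library totals alone (adjusted p = 0.0663). ACTB has many processed pseudogenes, so its count is uncertain.

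The 8 largest losses outside the 86 symbols left out were of mixed function. As their choice required, they fell together, from 1.80 ± 0.0553% to 1.16 ± 0.0179% of all counts. CCN1, a matrix-associated growth signal, had 2559, 2526 and 2337 CPM in the controls and 1529, 1590.2 and 1417 CPM after treatment (log2 fold change -0.71 ± 0.07). SCD, the desaturase that makes monounsaturated fatty acids, fell from 1829 ± 179 to 1053 ± 83.8 CPM. The chromatin proteins DEK (1080.5 ± 49.2 to 578 ± 23.6 CPM) and NUCKS1 (1328 ± 95.6 to 832 ± 26.4 CPM) and the cytokinesis scaffold ANLN (1134 ± 82.8 to 676 ± 29.5 CPM) also fell. HSP90AA1, a heat-inducible chaperone gene, fell from 2613 ± 329.6 to 1833 ± 132 CPM. EEF1A1, a translation elongation factor gene with many pseudogene copies, was called lower by only 0.20 ± 0.08 (adjusted p = 0.0352), and that call was lost in 5 of the 13 alternatives.

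**Figure D2:**
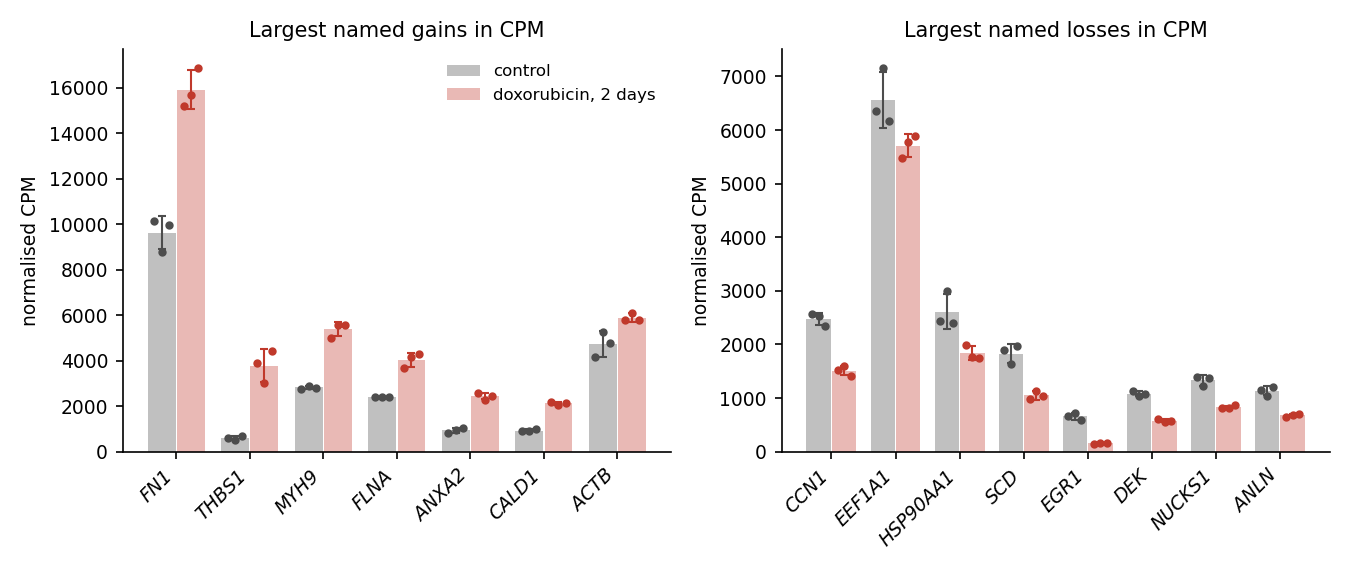
Normalised CPM of the 7 genes with large named gains (left) and the 8 with the largest named losses (right), ordered by the size of the change; bars are means, error bars SD and points the 3 libraries of each group (grey, control; red, 2 days of doxorubicin). FN1 gained the most, and THBS1 rose from 605 ± 79.3 to 3775 ± 717 CPM.

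To look past single genes, 92 classes were counted, and 82 of them (cell-type markers apart) had at least 8 tested members. The 10 with the highest and the 10 with the lowest share called higher minus share called lower are described, against 23.8% higher and 23.4% lower over all genes. The other 62 classes had net shares of -24.0 to 22.8 percentage points and medians of -0.46 to 0.30. Mediator subunits, for example, were even, with 7 of 33 higher and 7 lower, and so were aminoacyl-tRNA synthetases, with 6 of 22 in each direction.

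Caveolae, the flask-shaped pits of the cell membrane that buffer stretch, stood highest. Of 13 tested genes 10 rose and 1 fell, with a median log2 fold change of 0.67. CAV1, which encodes their main coat protein, went from 349, 367 and 425 CPM to 816, 732 and 846 CPM (1.07 ± 0.09, adjusted p = 2.35e-10). EHD1 and EHD3, ATPases of the neck and of membrane recycling, rose from 44.9 ± 5.63 to 96.8 ± 4.14 CPM and from 10.4 ± 0.974 to 32.3 ± 3.84 CPM, and PACSIN2, a membrane-bending protein, from 91.7 ± 6.92 to 179 ± 6.99 CPM. The exception was CAVIN4, the muscle cavin, which went from 2.59 ± 0.941 to 1.38 ± 0.0637 CPM (-0.91 ± 0.27), a call lost without control replicate 2 (adjusted p = 0.0975).

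TNF ligands and receptors came next, with 17 of 29 higher, 2 lower and a median of 0.77. EDA2R, a receptor for ectodysplasin A2 and a known p53 target, had 3.35, 3.02 and 4.82 CPM in controls and 41.3, 34.8 and 37.2 CPM after treatment (3.34 ± 0.14). TNFSF4, the ligand of the T-cell receptor OX40, rose from 10.6 ± 0.954 to 76.9 ± 11 CPM. The exceptions were TNFSF12, the gene for the ligand TWEAK, at 4.22 ± 0.448 against 1.97 ± 0.289 CPM, and TNFRSF13C, the receptor of the B-cell factor BAFF, at 10.8 ± 0.851 against 6.01 ± 0.389 CPM. Tetraspanins, membrane organisers that partner with integrins, had 13 of 23 higher and 4 lower (median 0.39). CD82 led them, at 18.6, 23.9 and 21.5 CPM in controls and 91.8, 95.2 and 90.7 CPM after treatment (2.12 ± 0.09), and TSPAN15 (2.61 ± 0.296 to 0.699 ± 0.402 CPM) was the steepest fall.

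Annexins, which bind membranes in the presence of calcium, had 7 of 11 members higher and 3 lower, with a median of 0.63. ANXA4 rose from 14.7, 18 and 14.7 CPM to 79, 70.0 and 76.5 CPM (2.25 ± 0.10), and ANXA8 from 4.28 ± 0.871 to 52.0 ± 3.61 CPM. ANXA7 fell from 118 ± 6.46 to 89.1 ± 5.07 CPM. Integrins, the receptors that tie cells to the matrix, had 8 of 18 higher and 3 lower (median 0.22), or 8 and 5 with a median of 0.09 under library totals alone. ITGA3, a laminin-binding chain, rose from 175, 198 and 171 CPM to 387, 407 and 388 CPM (1.12 ± 0.08), and ITGA11, a collagen-binding chain, from 129 ± 5.51 to 229.9 ± 4.35 CPM. ITGB4, the chain of hemidesmosomes, was called lower (-0.81 ± 0.29, adjusted p = 0.0262), a call lost when any of 4 libraries was left out.

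Of 28 semaphorins, plexins and neuropilins, guidance molecules and their receptors, 13 were higher and 6 lower, with a median of 0.18 that ran from 0.05 with library totals alone to 0.31 in a fit of the 6 libraries. SEMA3B, a secreted semaphorin, had 4.2, 4.2 and 4.29 CPM in the controls and 32.0, 34.3 and 32.8 CPM after treatment (2.96 ± 0.12, adjusted p = 1.16e-15). The receptor gene PLXNB3 rose from 4.23 ± 0.540 to 22.4 ± 2.31 CPM, while SEMA6C fell from 6.00 ± 0.847 to 1.93 ± 0.586 CPM. SOX factors had 3 of 8 higher and 1 lower but a median of -0.07, which ran from -0.23 without day 2 replicate 2 to 0.21 with a minimum of 1 CPM, so the class did not move as a whole; SOX9, a factor of cartilage and progenitor cells, rose from 9.23 ± 1.46 to 28.0 ± 1.96 CPM (1.60 ± 0.12).

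Genes of protein degradation were called higher more often than lower, by small steps. Of 46 tested genes of the proteasome, the protease that degrades ubiquitin-tagged proteins, 21 were higher and 3 lower (median 0.24), or 17 and 3 with a median of 0.11 under library totals alone. Of the leading members, 3 were regulators: PSME3 (159 ± 5.91 to 262 ± 3.57 CPM), PSME2 (37.9 ± 4.95 to 67.6 ± 6.65 CPM) and PSME4 (247 ± 28.1 to 379 ± 24.5 CPM) all encode activator caps. Of 21 subunits and partners of the vacuolar ATPase, the pump that acidifies lysosomes, 12 were higher and 3 lower (median 0.26), or 8 and 3 with a median of 0.13 under library totals alone. ATP6AP2 had 155, 149 and 149.9 CPM in the controls and 259, 221 and 246 CPM after treatment (0.68 ± 0.08). Genes of mitochondrial import and shape had 16 of 43 higher and 4 lower (median 0.13, and 0.21 without control replicate 2), falling to 10 higher, 6 lower and a median of 0.01 with library totals alone. In that class the fusion genes MFN2 (0.50 ± 0.08) and MFN1 (-0.41 ± 0.09) were called in opposite directions.

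Cohesin, condensin and their loaders, the rings that fold chromosomes and hold sister chromatids together, stood lowest of all classes. Of 27 tested genes 20 fell and 0 rose, with a median of -0.56. SMC3, a cohesin subunit, went from 313, 315 and 332 CPM to 168, 146 and 149.9 CPM (log2 fold change -1.05 ± 0.07, adjusted p = 2.34e-11). RAD21, the cohesin subunit that closes the ring, fell from 578 ± 49.4 to 293 ± 15.6 CPM. CTCF, the DNA-binding protein at which cohesin halts, had 89.9, 91.3 and 91.2 CPM against 50.5, 41.6 and 47.0 CPM (-0.97 ± 0.08), and NCAPG of condensin fell from 171 ± 11.2 to 90.9 ± 8.71 CPM. Condensin and part of cohesin belong to mitosis, so the class is not apart from the cell cycle.

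Other nuclear complexes leaned the same way. Polycomb genes, which silence chromatin, had 17 of 34 lower and 5 higher (median -0.28). EZH2, the enzyme that methylates histone H3, went from 66.8, 74.1 and 71.8 CPM to 34.5, 30.5 and 35.3 CPM (-1.08 ± 0.08), and its partner PHF19 fell from 86.4 ± 9.08 to 32.9 ± 2.58 CPM. BCOR, of a variant Polycomb complex, rose from 33.4 ± 3.02 to 61.8 ± 1.30 CPM. SWI/SNF remodellers had 13 of 29 lower and 3 higher (median -0.19), with BRD7 (140.3 ± 10.8 to 93.6 ± 6.06 CPM) and SMARCA2 (89.5 ± 6.18 to 64.0 ± 2.43 CPM) among the falls and DPF2 (48.3 ± 5.38 to 71.7 ± 4.92 CPM) among the rises.

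Nuclear pore and transport receptor genes had 29 of 56 lower and 7 higher (median -0.22). XPOT, the export receptor for transfer RNA, fell from 532, 459 and 505 CPM to 223, 210.2 and 225 CPM (-1.19 ± 0.08, adjusted p = 6.86e-12), IPO8, an import receptor, from 169 ± 19.2 to 77.0 ± 5.17 CPM, and XPO1, the main protein exporter, from 512 ± 48.8 to 321 ± 27.6 CPM. IPO13 rose from 24.0 ± 1.65 to 35.8 ± 1.82 CPM. Among splicing regulators, SR proteins and hnRNPs had 22 of 49 lower and 6 higher (median -0.22). SRSF7 (184 ± 5.35 to 117 ± 2.45 CPM) and SRSF2 (180.1 ± 10.1 to 111 ± 4.39 CPM) fell, and CELF2, a splicing factor of heart and brain, rose from 1.70, 2.10 and 2.51 CPM to 8.47, 7.74 and 9.97 CPM (2.06 ± 0.19).

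Among microtubule and cilium genes fewer than 50% were called lower, and still fewer higher. Tubulins, with the gamma-tubulin complexes that start microtubules, had 10 of 22 lower and 3 higher (median -0.39, and -0.26 without control replicate 2). TUBGCP3 of the gamma-tubulin complex had 46.3, 47.7 and 48.1 CPM in the controls and 16.6, 17.9 and 17.3 CPM after treatment (-1.46 ± 0.10), while TUBB6 rose from 294 ± 36.4 to 423 ± 15.3 CPM. Genes of intraflagellar transport and the BBSome, which carry cargo in cilia, had 16 of 37 lower and 5 higher (median -0.15). TCTN2, of the gate at the base of the cilium, fell from 35.5 ± 2.01 to 16.8 ± 1.46 CPM, and IFT20, which also works at the Golgi, rose from 15.5 ± 2.27 to 34.1 ± 1.67 CPM.

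The last classes mixed clear members in both directions. Enzymes of mucin-type and sialic acid glycosylation had 17 of 39 lower and 6 higher (median -0.28). Among the named members the smallest p-values belonged to rises: GALNT1, which starts mucin-type chains, had 162, 158 and 169 CPM in the controls and 324, 321 and 332 CPM after treatment (1.00 ± 0.08), and GALNT5 went from 55.7 ± 6.44 to 120.1 ± 4.37 CPM. ST6GAL1, a sialic acid enzyme, fell from 26.6 ± 2.00 to 17.2 ± 0.516 CPM. The class list also held FUT8, the core fucosyltransferase, which fell from 44.3 ± 1.60 to 29.2 ± 1.10 CPM. KLF and SP factors had 9 of 19 lower and 4 higher (median -0.26), yet KLF10, an early gene of TGF-beta signalling, rose from 65.0 ± 3.22 to 198 ± 8.10 CPM and KLF4 from 20.6 ± 2.11 to 51.5 ± 2.74 CPM. SP1, a general activator, fell from 199 ± 19.2 to 112 ± 6.03 CPM. Of 8 Wnt feedback genes 3 were lower and 1 higher (median -0.23). LGR5, a receptor for R-spondins, fell from 25.1, 22.7 and 25.1 CPM to 7.11, 8.15 and 10.8 CPM (-1.49 ± 0.14), AXIN2 was called lower (-0.71 ± 0.27, adjusted p = 0.0324) but not when any of 3 libraries was left out, and BAMBI rose from 18 ± 1.40 to 35.6 ± 4.70 CPM. With library totals alone, medians of the lower classes moved further down, by over 1.5 times for nuclear pore and transport genes (-0.34), SWI/SNF (-0.31), SR proteins and hnRNPs (-0.34), cilium transport (-0.27) and Wnt feedback (-0.35).

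**Figure D3:**
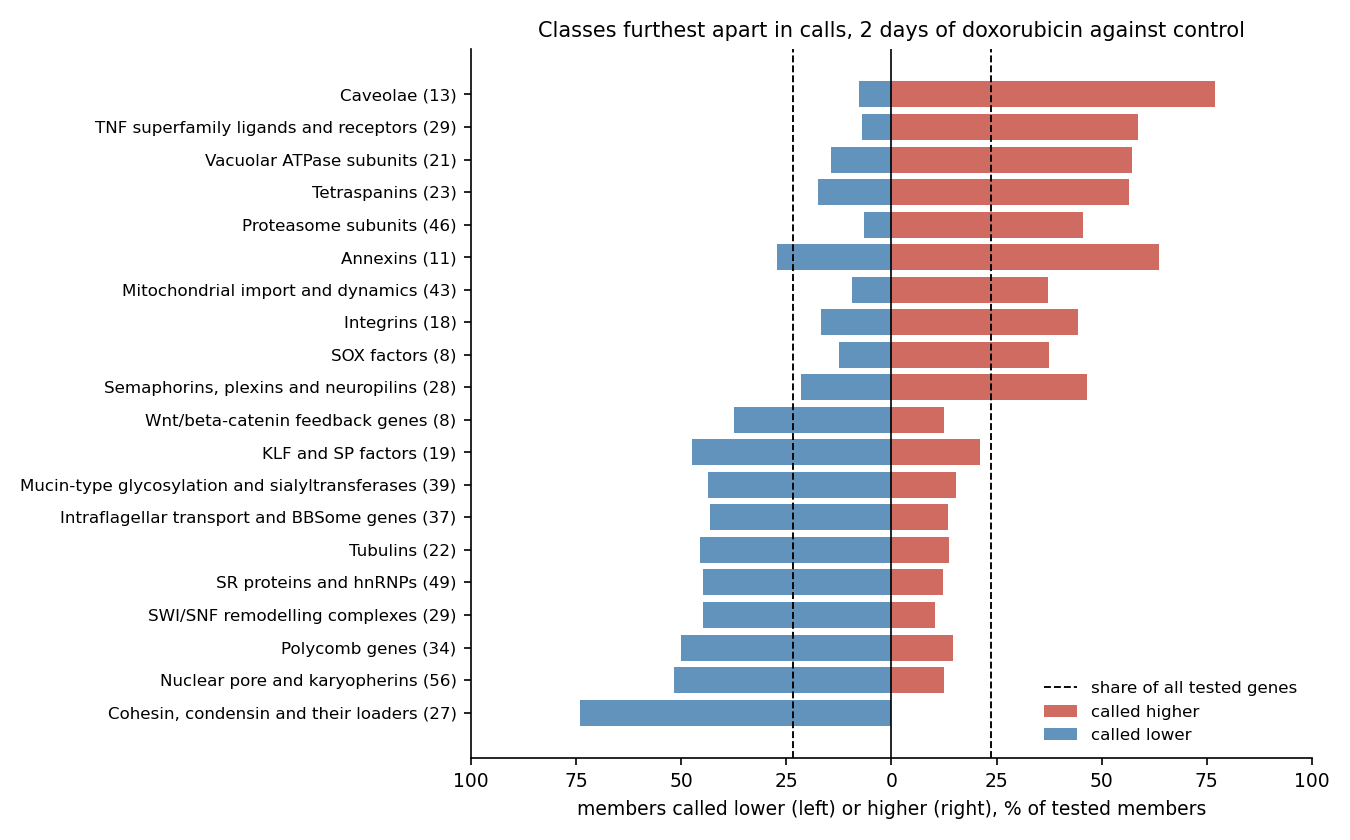
Share of tested members called higher (red, to the right) and lower (blue, to the left) for the 20 described classes, with the number tested in brackets; dashed lines mark the 23.8% and 23.4% of all tested genes. Caveolae (10 of 13 higher) and the cohesin and condensin class (20 of 27 lower) are the ends of the range, and both were picked for that.

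Runs of neighbouring genes moved together in 7 places, 5 upwards and 2 downwards, where at least 4 tested protein-coding genes in a row were called in the same direction at 2-fold or more. Type I keratins on chromosome 17 formed a run of 6. KRT17, a keratin of stressed epithelia, rose from 1.65, 1.97 and 0.925 CPM to 19.3, 16.0 and 17.1 CPM (3.52 ± 0.19, adjusted p = 1.05e-13), KRT19 from 5.39 ± 0.569 to 22.1 ± 2.65 CPM, KRT14 from 1.73 ± 0.157 to 6.79 ± 0.757 CPM and KRT15 from 0.497 ± 0.208 to 2.51 ± 0.587 CPM. KRT34 (1.05 ± 0.24) and KRT38 completed the run, and KRT38 (1.08 ± 0.37, adjusted p = 0.0175) was lost without control replicate 2 or day 2 replicate 3. KRT14 and KRT19 are also epithelial markers, whose list had 4 of 7 tested genes higher, and EPCAM, a defining epithelial gene, was called lower at 0.556 and 0.185 CPM. The part of epithelial-type cells in this run was not tested.

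The chemokine run on chromosome 4 held neutrophil attractants. CXCL8, the gene for interleukin-8, had 15.7, 13.3 and 13.1 CPM in controls and 92.8, 101 and 93.1 CPM after treatment (2.76 ± 0.10), and CXCL1 went from 0.540 ± 0.132 to 8.87 ± 1.97 CPM (4.02 ± 0.23). CXCL6 and CXCL5 were scarce, at 1.08 ± 0.329 and 1.88 ± 0.453 CPM after treatment. All 4 were higher again after 4 days than after 2, with log2 differences from 1.44 to 2.69. On chromosome 8 the death receptors for TRAIL and their decoys formed a run, in which TNFRSF10C, a decoy receptor gene, rose from 0.568, 0.788 and 0.793 CPM to 12.2, 10.3 and 12.1 CPM (4.02 ± 0.19) and TNFRSF10B, a death receptor and known p53 target, from 145 ± 9.15 to 457 ± 30.7 CPM. On chromosome 1 a run of PLXNA2, CAMK1G, LAMB3 and G0S2 rose. LAMB3, a laminin chain of epithelial basement membranes, went from 14.3 ± 2.38 to 79.5 ± 3.24 CPM. G0S2, an inhibitor of fat breakdown, went from 8.19 ± 1.99 to 46.5 ± 5.50 CPM. PLXNA2 ends at 208244320, far before the start of CAMK1G at 209583717. PLXNA2 and CAMK1G are neighbours in the order of tested protein-coding genes, not by distance.

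Olfactory receptor genes next to TRIM22 on chromosome 11 formed the longest run, 7 genes with TRIM22 included. TRIM22, an antiviral ubiquitin ligase gene (5689689 to 5737089, plus strand), had 11.5, 10.6 and 13.4 CPM in the controls and 128, 129 and 132 CPM after treatment (3.46 ± 0.11, adjusted p = 1.11e-17). The receptor genes are normally used in the nose, and their counts here were low, at most 76 in a library. OR56A5, 277 kb from the start of TRIM22, had 14, 3 and 5 counts in the controls and 68, 56 and 58 after treatment (2.95 ± 0.35, and 3.72 without control replicate 1), and OR56A3 had 15, 15 and 20 against 60, 76 and 58 (1.88 ± 0.29). OR56A1 had 23, 13 and 21 against 25, 45 and 64, and its call was lost without day 2 replicate 3 (adjusted p = 0.0644).

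Part of that stretch lies within a longer annotated gene. TRIM5, on the minus strand from 5663557 to 5938619, spans TRIM22 and OR52E5, and it rose from 26.6 to 52.1 CPM (0.97 ± 0.09). OR56A3, OR56A5, OR52L1, OR56A4 and OR56A1 lie beyond its annotated span, from 5938751 onwards. Reads from long or antisense transcripts that cross the receptor genes cannot be told apart from receptor messages in this count table, and their part was not tested. Of the receptor genes nearer to TRIM22, none passed the filter: OR52N4, OR52N5 and OR52N1 had 0 counts in all 6 libraries, and OR52E6 had 1 count in each control against 8, 6 and 8. OR56A5 (14, 3 and 5 counts in the controls), OR52E5 (5, 9 and 9), OR52L1 (3, 1 and 3) and OR56A4 (7, 2 and 6) passed the filter only through doxorubicin libraries. The filter thus favours scarce genes that rose. Untested genes of the region went both ways. OR52Q1P had 4, 1 and 3 counts against 12, 5 and 18, and OR52L2P had 1, 1 and 6 against 0, 3 and 6. FHIP1B, the next tested gene beyond the cluster, was not called (-0.02 ± 0.13).

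**Figure D4:**
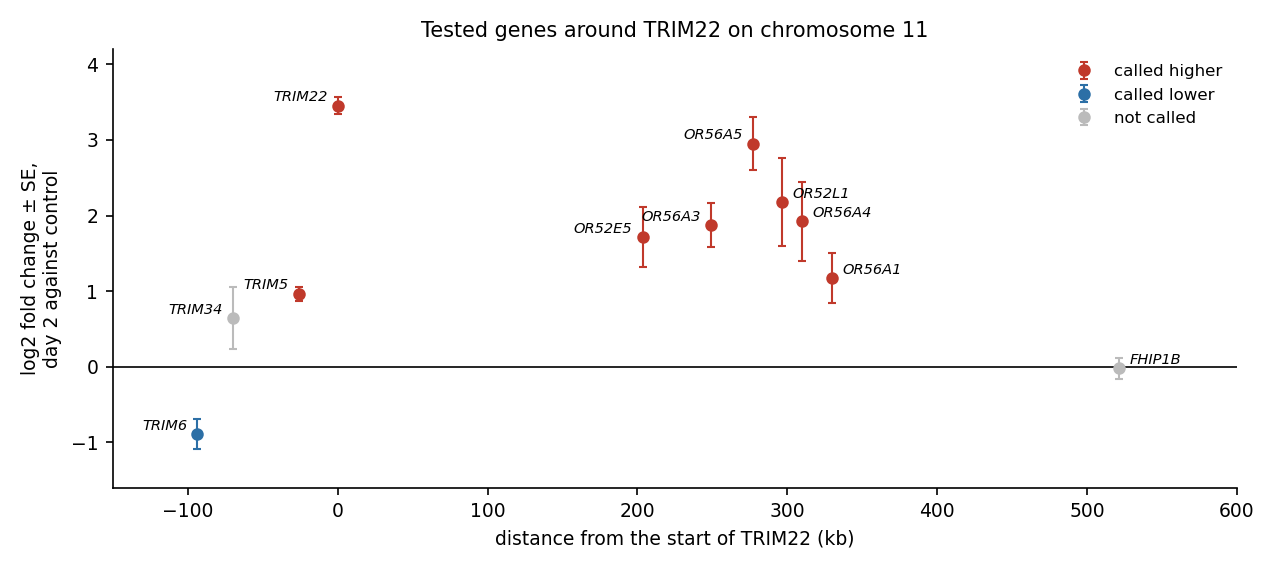
Log2 fold change after 2 days of doxorubicin (± SE) of the tested genes around TRIM22, by distance in kb from its start; red points were called higher, the blue point lower and grey points were not called. From 204 to 330 kb all 6 tested olfactory receptor genes lie above 1, which the rule for a run required, and FHIP1B at 522 kb lies at 0. Untested genes are not shown, and the count filter favours scarce genes that rose.

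The falling runs were on chromosomes 12 and 1. On chromosome 12 SHMT2, the mitochondrial enzyme that feeds one-carbon metabolism, fell from 231, 269 and 222 CPM to 123, 116 and 116 CPM (-1.02 ± 0.09), beside the scarce NXPH4, STAC3 and NDUFA4L2, the last lost without day 2 replicate 1 (adjusted p = 0.0615). SHMT2 and NDUFA4L2 overlap at their ends on opposite strands. On chromosome 1 C1orf115 (13.1 ± 0.855 to 4.96 ± 0.477 CPM), the molybdenum enzyme genes MTARC2 (9.77 ± 1.34 to 4.15 ± 0.795 CPM) and MTARC1 (1.03 ± 0.326 to 0.179 ± 0.106 CPM) and the homeobox gene HLX (3.59 ± 0.479 to 1.66 ± 0.344 CPM) fell in a row.

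The median change hardly differed with gene span. Topoisomerase inhibitors are known to hold back long genes in some cells, but here the median log2 fold change of protein-coding genes lay between -0.04 and 0.04 in 5 classes of genomic span, from under 10 kb to over 300 kb. Among 536 protein-coding genes over 300 kb, 30.6% were called higher and 27.6% lower, against 24.4% and 21% of 2406 genes under 10 kb. By chromosome, the share called higher ran from 17.7% on chromosome 16 to 30.7% on chromosome 20, and the share lower from 17.8% on chromosome 19 to 30.1% on chromosome 15. By gene type, 26.7% of protein-coding genes were higher and 26.4% lower, and 21.1% of lincRNAs were higher and 14% lower. These are descriptions across genes, which are not replicates.

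Most of the steep early changes were smaller after the longer exposure. Over all genes 34.8% were called between day 4 and day 2, a comparison that uses the same day 2 libraries. The named genes were chosen for extreme changes after 2 days, and that choice by itself favours a move back. Of the 15 named rises 14 were called lower after 4 days than after 2, and TRIM55 was not called (8.74 ± 2.33 and 10.6 ± 1.67 CPM). CEACAM1 went from 31.9 ± 0.160 CPM after 2 days to 3.71 ± 1.37 CPM after 4 days (log2 difference -3.10 ± 0.17, adjusted p = 1.22e-12), and CPA4 from 233 ± 25.2 to 56.4 ± 16.0 CPM. Of the 15 named falls 10 were called higher again, among them RNF157 (1.05 ± 0.273 to 4.29 ± 0.334 CPM) and NAALADL2 (1.5 ± 0.134 to 5.81 ± 1.04 CPM). EGR1 (155 ± 9.35 and 159 ± 36.2 CPM), GLI1, MAP2K6 and ASNS were not called, and FOS was lower again (18 ± 2.39 to 11.8 ± 0.590 CPM).

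**Figure D5:**
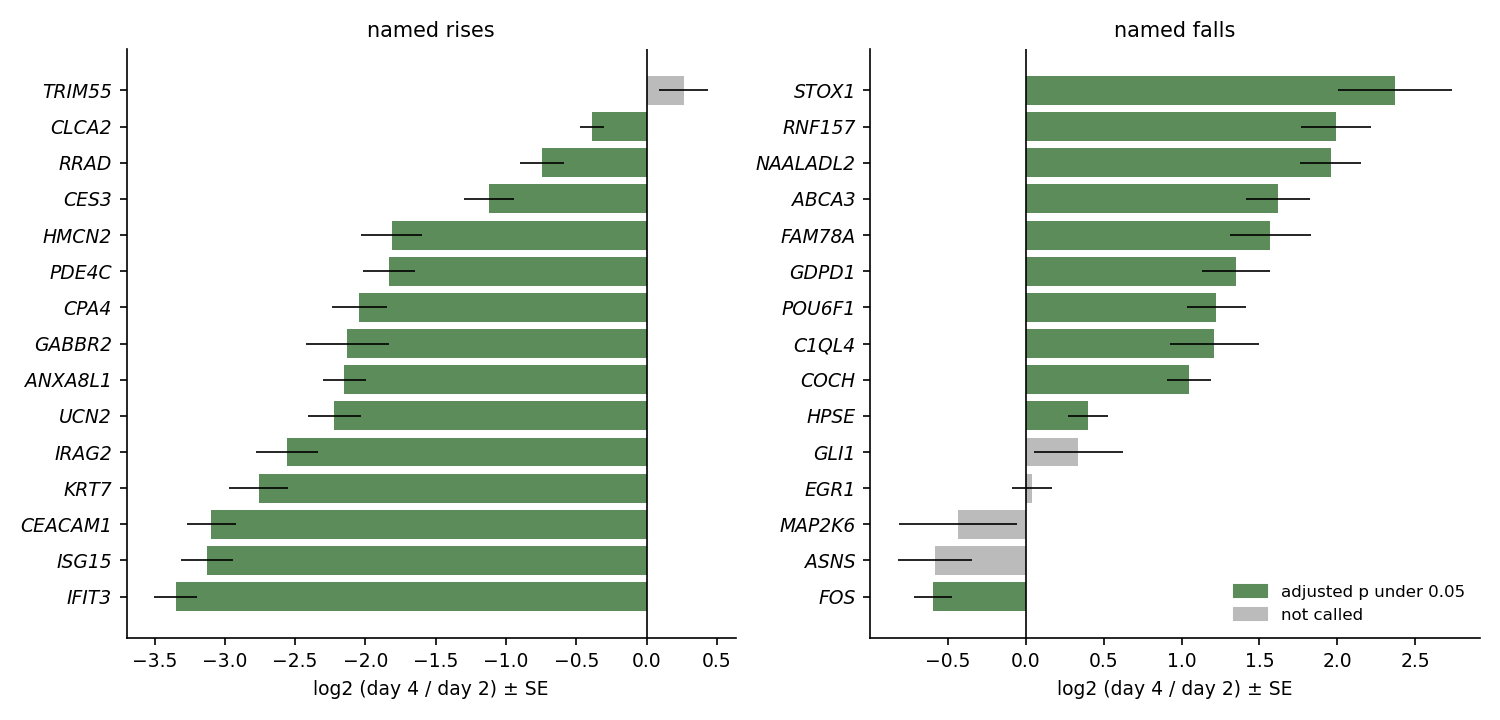
Log2 difference of the 4-day from the 2-day exposure (± SE) for the 15 named rises (left) and 15 named falls (right); green bars had an adjusted p under 0.05 and grey bars did not. Among the rises 14 of 15 bars point to lower levels after 4 days, and 10 of the 15 falls have green bars that point to higher levels. The choice of the genes by their day 2 change favours both directions of return.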

How the data were processed

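RNA of AC16 cells was sequenced in 12 libraries made with a NEBNext Ultra kit, per the labels' protocols. The authors deposited raw counts per gene, 1 column per library, with no normalization; all columns were used. fastp 0.23.2, Trimmomatic 0.38, STAR 2.7.8, HTSeq 0.13.5 and GRCh38.p13 are named in the submitters' processing notes without roles; the strand setting is not given in the sources used here. Counts of all 12 libraries were fitted in edgeR 4.0.16 (R 4.3.3) with 4 group means, filterByExpr (minimum count 10, total 15), TMM scaling and the robust quasi-likelihood test. The common biological coefficient of variation was 0.0887. The SE is the absolute log2 fold change divided by the square root of F. Of the tested genes 15394 had a symbol and 17099 a position in GENCODE release 29 (GRCh38). Bounds against a group at 0 use a floor of 3 counts over that group and cover counting error only.

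Single genes were named by rule: the 15 highest and 15 lowest called log2 fold changes with at least 5 CPM in the higher group and no overlap, the 8 largest gains and losses of CPM, the 5 highest and lowest named long non-coding RNAs at 2 CPM or more, genes with 0 counts in a group, up to 4 leading and 2 opposite members of each described class, and neighbour runs. Of the gains of CPM 1 is not reported here. Some of the others are given only in a figure or a count. MIR34AHG, TRIM5 and the marker genes were added after their values were seen, as were the exclusion of pseudogenes, a neighbouring gene and a divergent transcript from classes and the inclusion of 2 let-7 hosts among microRNA hosts. Members and lists were chosen with earlier results of these data known. The alternatives were scaling by DESeq2's size factors or by library totals, no filter or a 1 CPM minimum, DESeq2 1.42.0 itself, a replicate block, a fit of the 6 libraries alone, and leaving out each of those libraries. On simulated counts for day 2 against control (16328 genes) the share of seeded changes found was 65.7% at 1.5-fold, 89.6% at 2-fold and 100% at 4-fold, and 8 of 178 calls were false. Changes were seeded in only 67, 67 and 66 genes at these folds, all above 1 CPM in controls. The rates therefore do not carry over to scarcer genes or to data with 8180 calls.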

Additional observations from a re-analysis of the deposited data

Results flagged for a closer look

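For 25 of the 30 steepest named changes the level after 4 days differed from that after 2 days in the same fit, so the effect of doxorubicin against the shared control was not the same at both exposures. The choice of these genes by their day 2 change favours differences back towards the control. Among the rises the log2 differences of day 4 from day 2 were -3.35 for IFIT3, -3.13 for ISG15, -3.10 for CEACAM1, -2.76 for KRT7, -2.56 for IRAG2, -2.22 for UCN2, -2.15 for ANXA8L1, -2.13 for GABBR2, -2.04 for CPA4, -1.83 for PDE4C and -1.81 for HMCN2. They were smaller for CES3 (-1.12), RRAD (-0.74) and CLCA2 (-0.39), so CLCA2 kept most of its level. Among the falls the level was higher again by 2.37 for STOX1, 1.99 for RNF157, 1.96 for NAALADL2, 1.62 for ABCA3, 1.57 for FAM78A, 1.35 for GDPD1, 1.22 for POU6F1, 1.21 for C1QL4, 1.05 for COCH and 0.40 for HPSE. FOS alone among these falls was lower again, with a difference of -0.59.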

How the results depend on the processing

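The counts of called genes stayed within 1.5 times of 4122 higher and 4058 lower under each of the 13 alternatives. Library totals alone gave 3203 higher and 5386 lower, 37.3% higher of those called against 50.4%. Leaving out a library gave 3744 to 4249 higher and 3393 to 4072 lower, and DESeq2 gave 4112 and 3900. Of 201 named genes 189 kept their call under every alternative that tested them (11 of 13 for OR52L1, 12 for OR56A4 and MTARC1, 13 for the others); those that lost it, beside those named above, were SOX13 without day 2 replicate 2 (adjusted p = 0.0649), POM121C with library totals (0.126), and TUBGCP2 and PSMD1 in 4 alternatives each (up to 0.216 and 0.147). No named gene changed sign. The count of members called in a class's leading direction moved by over 1.5 times for 2 classes, both with library totals: mitochondrial import (10) and Wnt feedback (5). Of the medians by class and gene span, 35 values moved by more than their spread and 290 did not; those over 1.5 times stand beside the classes. The replicate numbers did not pair the libraries: deviations of same-numbered libraries correlated at -0.12, 0.09 and 0.10, and a replicate block gave 4025 higher and 3925 lower. The fold of genes with 0 control counts is set by the floor.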
